A study of Mus musculus with 12 samples.

Results

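The Dlx family of mouse comprises 6 genes, Dlx1 to Dlx6, each of which encodes a transcription factor with a homeodomain of the Distal-less type. They were taken from the count files by gene symbol. All 6 were present among the 24391 symbols of the files, and all 6 were among the 15958 genes that passed the filter on low counts and were tested. RNA came from the shelves of the developing palate, which grow and fuse to close the roof of the oral cavity, in C57BL/6 embryos at E13.5. The 4 groups, each of 3 libraries, were the anterior palate of tamoxifen-treated mice (TAM_AP), the anterior palate of controls (con_AP), the posterior palate of tamoxifen-treated mice (TAM_PP) and the posterior palate of controls (con_PP). Tamoxifen, which binds the oestrogen receptor and modulates it by tissue, induces cleft palate in mice according to the series title. The labels name no transgene or Cre line, and give no dose, route or time of treatment. They do not say whether libraries of a group came from separate animals or litters, so p-values measure only the spread between these samples, which may be technical.

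Dlx genes lie in the genome as 3 convergently transcribed pairs, Dlx1 with Dlx2, Dlx3 with Dlx4, and Dlx5 with Dlx6. In the mouse pharyngeal arches they are expressed in a nested pattern: Dlx1 and Dlx2 in the upper and lower jaw primordia, Dlx5 and Dlx6 mainly in the lower jaw primordium, and Dlx3 and Dlx4 at its distal end. Endothelin signalling acts upstream of Dlx5 and Dlx6 there. Mice that lack Dlx1 and Dlx2, or Dlx5, have a cleft palate, and in the mouse palate Dlx5 has been placed in a circuit with the growth factor Fgf7 and Sonic hedgehog.

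The homeobox shows how alike the members are and how far reads could be shared between them. It was located in the longest coding transcript of each gene in the GENCODE annotation of the mouse genome build GRCm38. The pair of genes with the most similar homeobox, Dlx2 and Dlx3, had 81.7% identical bases over 180, and the least similar pair, Dlx3 and Dlx6, had 66.1%. The longest run of bases shared exactly by the transcripts of any 2 members was 23, and no stretch of 50 bases was shared, so a read of that length has no exact match in a second member. The 48 bases below encode part of the third helix of the homeodomain, the one that reads DNA. Lower case marks the 30 positions with the same base in all 6 genes, and capitals mark the 18 positions at which at least 1 gene differs.
Dlx1: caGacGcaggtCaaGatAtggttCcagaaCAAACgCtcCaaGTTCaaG
Dlx2: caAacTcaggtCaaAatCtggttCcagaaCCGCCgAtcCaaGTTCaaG
Dlx3: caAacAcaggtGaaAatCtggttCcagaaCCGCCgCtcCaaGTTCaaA
Dlx4: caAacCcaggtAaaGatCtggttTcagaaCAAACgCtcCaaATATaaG
Dlx5: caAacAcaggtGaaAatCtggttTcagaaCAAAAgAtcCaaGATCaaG
Dlx6: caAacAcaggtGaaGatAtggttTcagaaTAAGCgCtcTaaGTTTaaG

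The promoters of Dlx1 and Dlx2 are shown because Dlx2 had the smallest adjusted p of the members after tamoxifen and Dlx1 is its partner on chromosome 2, and that of Dlx6os1, an RNA transcribed opposite to Dlx6 on chromosome 6, because it was the opposite-strand RNA called after tamoxifen. Each window holds the 250 bases before and 50 after a start site, from RefSeq in build GRCm38.p6, which is newer than the mm9 build of the count files. The table of promoters matched 2 of the 6 members. Capitals mark TAATTA, the core sequence bound by many homeodomain proteins, which reads the same on both strands and occurs in 5.29% of 32851 promoter windows. The full palindrome of an oestrogen response element, GGTCA and TGACC with 3 bases of any kind between, also the same on both strands, occurs in 0.07% of windows. In the Dlx1 and Dlx2 windows neither motif was present, so they are printed in lower case. The first Dlx6os1 window held 2 copies of TAATTA and no copy of the oestrogen response element. A second listed start of Dlx6os1, not printed, held 1 copy of TAATTA. GC content was 35.7% in the first Dlx6os1 window, against 69.3% for Dlx1 and 66.3% for Dlx2. The share of 5.29% is over windows of any GC content, and TAATTA holds only A and T.
Dlx1 (chr2:71529195-71529494, plus strand): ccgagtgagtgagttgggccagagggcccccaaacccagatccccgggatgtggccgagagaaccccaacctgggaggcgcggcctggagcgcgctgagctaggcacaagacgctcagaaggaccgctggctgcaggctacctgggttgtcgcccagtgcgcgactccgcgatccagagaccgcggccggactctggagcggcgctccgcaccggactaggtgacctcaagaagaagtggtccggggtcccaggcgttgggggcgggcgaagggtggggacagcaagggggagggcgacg
Dlx2 (chr2:71546705-71547004, minus strand): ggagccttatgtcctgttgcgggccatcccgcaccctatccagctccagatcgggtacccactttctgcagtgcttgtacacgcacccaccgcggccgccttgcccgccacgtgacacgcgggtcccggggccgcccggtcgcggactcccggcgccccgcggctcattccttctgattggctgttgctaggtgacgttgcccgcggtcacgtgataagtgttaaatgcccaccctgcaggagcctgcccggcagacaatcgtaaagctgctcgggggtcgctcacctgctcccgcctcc
Dlx6os1, first listed start (chr6:6869484-6869783, minus strand): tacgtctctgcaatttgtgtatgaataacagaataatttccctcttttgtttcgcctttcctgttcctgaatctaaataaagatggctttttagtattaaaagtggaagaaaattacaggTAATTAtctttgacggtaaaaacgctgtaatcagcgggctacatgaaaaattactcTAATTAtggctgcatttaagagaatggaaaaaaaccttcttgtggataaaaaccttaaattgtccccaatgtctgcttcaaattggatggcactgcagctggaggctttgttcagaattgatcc

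Total counts were 39.4 M to 73.0 M per library, the highest in TAM_AP replicate 1 and the next at 50.2 M. Shox2, whose expression marks the front of the palate and checks the labelled region, stood at 375 to 579 CPM (counts relative to the library total, adjusted by the trimmed mean of M-values, TMM) in TAM_AP and 304 to 360 CPM in con_AP, against 12.7 to 22.9 CPM in TAM_PP and 16.5 to 19.8 CPM in con_PP. Forebrain interneurons and their progenitors are the brain cells known for Dlx expression, and the sum of their 7 marker genes was 2.83 to 8.16 CPM over all libraries, with 1 or 2 of the 7 at 0 throughout each group. The 3 markers of lower jaw mesenchyme summed to 8.55 to 15.5 CPM in TAM_AP, 15.7 to 18.3 CPM in con_AP, 38.2 to 44.9 CPM in TAM_PP and 44.0 to 60.2 CPM in con_PP. TAM_AP replicate 2 stood apart from the other TAM_AP libraries, with the lowest sums for markers of palatal mesenchyme (5059 CPM) and osteoblasts (263 CPM) and the highest Shox2. A large part of the mesenchyme sum is Col1a1, also a bone matrix gene, at 1867 to 4253 CPM over the TAM_AP libraries. The low sum therefore does not by itself show less palatal mesenchyme in that library. TAM_AP replicate 2 also had the lowest TAM_AP value of Dlx3, Dlx4, Dlx5 and Dlx6 and the highest of Dlx1. Fold changes of Dlx genes in TAM_AP are therefore given with and without it. Because it was singled out partly by these values, changes seen without it follow in part from that choice. They show how far a result rests on 1 library and are no separate support. Counts over the gene lists are with all libraries.

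The question of the treatment comparison was which Dlx genes differ after tamoxifen in each part of the palate. In the anterior palate Dlx2, Dlx4 and Dlx5 fell, and the other members gave no call. Dlx2 was at 0.533 and Dlx5 at 0.617 times its control level. With a trend in transcript length and GC content removed, as described below, the Dlx4 (adjusted p = 0.131) and Dlx5 (adjusted p = 0.0989) calls were lost and Dlx2 stood at -0.47 on the log2 scale, against -0.91. In the posterior palate none of the 6 passed the test, where 29.0% of genes tested did, and the values of all 6 overlapped, where those of 48.0% of genes did not. In the whole table, 24.0% of the genes tested were called lower in TAM_AP than in con_AP, and 49.7% were called in either direction, so 3 of 6 members stand against this background. In bulk tissue, fewer cells of a type and less RNA per cell cannot be told apart. A call is a p below 0.05 by edgeR's quasi-likelihood test after Benjamini-Hochberg adjustment across the whole table.

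Dlx2, with Dlx1 the member expressed in both jaw primordia, had 52.7, 53.3 and 66.3 CPM in the 3 TAM_AP libraries, against 91.5, 104.6 and 126.9 CPM in con_AP. All 3 treated values lay below all 3 controls, as for 27.8% of genes tested, and the log2 fold change was -0.91 (SE 0.14, adjusted p = 0.000151). In the posterior palate the values were 80.8, 110.3 and 82.8 CPM in TAM_PP and 108.2, 93.2 and 117.1 CPM in con_PP. These overlap, with a log2 fold change of -0.22 (SE 0.14, adjusted p = 0.266) and a 95% confidence interval of -0.52 to 0.09. Dlx2 was called lower in TAM_AP in all 23 other fits tried, without TAM_AP replicate 2 at -0.85 (adjusted p = 0.00152).

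Dlx1, its neighbour, had 29.8, 46.4 and 34.4 CPM in TAM_AP and 45.5, 41.5 and 46.1 CPM in con_AP. The second treated library exceeded every control and the other 2 lay below them. The log2 fold change was -0.27 (SE 0.12, adjusted p = 0.0708), without a call. Dlx1 was called lower in 2 of 23 other fits. These were limma-voom (-0.31, adjusted p = 0.0418) and the fit without TAM_AP replicate 2, its highest treated value (-0.46, adjusted p = 0.000366). In the posterior palate Dlx1 stood at 58.9 ± 2.81 CPM in TAM_PP and 60.9 ± 2.02 CPM in con_PP (SD, n = 3 each), a log2 difference of -0.05 with a 95% confidence interval of -0.30 to 0.20. The ratio of Dlx2 to Dlx1 counts was 1.77, 1.15 and 1.93 in TAM_AP and 2.01, 2.52 and 2.75 in con_AP, so every treated value lay below every control. The posterior ratio was 1.37 to 1.79 in TAM_PP and 1.58 to 1.92 in con_PP, and the groups overlapped. By the length and GC trend described below, genes like Dlx1 had a mean anterior log2 fold change of -0.105. Genes like Dlx2 in length and GC content had one of -0.432. The ratio was not computed with that trend removed.

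Dlx5, the member tied to endothelin signalling and to the Fgf7 circuit of the palate, had 29.2, 22.9 and 37.3 CPM in TAM_AP, against 43.4, 55.3 and 46.3 CPM in con_AP. The groups did not overlap, and the log2 fold change was -0.70 (SE 0.13, adjusted p = 0.000486). Without TAM_AP replicate 2 it was -0.54 (adjusted p = 0.00101). The 6 posterior Dlx5 values were close together, at 22.8, 25.0 and 24.0 CPM in TAM_PP and 25.5, 24.6 and 24.0 CPM in con_PP. The log2 fold change there was -0.05, with a 95% confidence interval of -0.33 to 0.24.

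Dlx6, which overlaps Dlx5 in expression and function in the mouse arches, had 3.83, 2.91 and 5.83 CPM in TAM_AP and 5.72, 7.74 and 5.29 CPM in con_AP. The third treated library lay among the controls and the other 2 below them. The log2 fold change was -0.58 (SE 0.24, adjusted p = 0.0537), and without TAM_AP replicate 2 it was -0.38 (adjusted p = 0.198). Dlx6 was called lower in 5 of 23 other fits. With all libraries these were DESeq2 (adjusted p = 0.0374), limma-voom (adjusted p = 0.0385) and the fit with counts halved (adjusted p = 0.0466). The others were without TAM_AP replicate 3, its highest TAM_AP value (-0.88, adjusted p = 0.00493), and without TAM_PP replicate 3 (adjusted p = 0.0354). Posterior Dlx6 ran the other way without a call, at 7.34, 7.44 and 4.48 CPM in TAM_PP and 4.88, 5.01 and 4.79 CPM in con_PP (log2 fold change 0.39, SE 0.24, adjusted p = 0.222).

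Dlx3, whose human counterpart is mutated in tricho-dento-osseous syndrome, had 21.9, 13.0 and 28.6 CPM in TAM_AP and 25.9, 30.03 and 28.7 CPM in con_AP. The treated libraries were widely spread while the controls lay within a few CPM of each other, and the difference was not called (log2 fold change -0.41, SE 0.22, adjusted p = 0.143). Without TAM_AP replicate 2 it was -0.16 (adjusted p = 0.43), and without TAM_AP replicate 3 Dlx3 was called lower, at -0.69 (adjusted p = 0.0115). Posterior Dlx3 averaged 13.0 ± 2.73 CPM in TAM_PP and 12.9 ± 1.51 CPM in con_PP (SD, n = 3 each), a log2 fold change of 0.01 with a 95% confidence interval of -0.49 to 0.51.

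Dlx4, the partner of Dlx3 on chromosome 11, had low counts. It had 32, 8 and 22 counts in TAM_AP, against 32, 41 and 40 in con_AP. Scaled for depth these were 0.431, 0.179 and 0.488 CPM in TAM_AP and 0.793, 0.991 and 0.937 CPM in con_AP. On that scale the groups did not overlap, and the log2 fold change was -1.29 (SE 0.44, adjusted p = 0.0222). The call was lost without TAM_AP replicate 2 (adjusted p = 0.0851), without con_AP replicate 2 (adjusted p = 0.0639) and without con_AP replicate 3 (adjusted p = 0.0579). Its posterior counts were 24, 14 and 24 in TAM_PP and 22, 21 and 8 in con_PP, and the difference had a 95% confidence interval of -0.77 to 1.19.

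**Figure D1:**
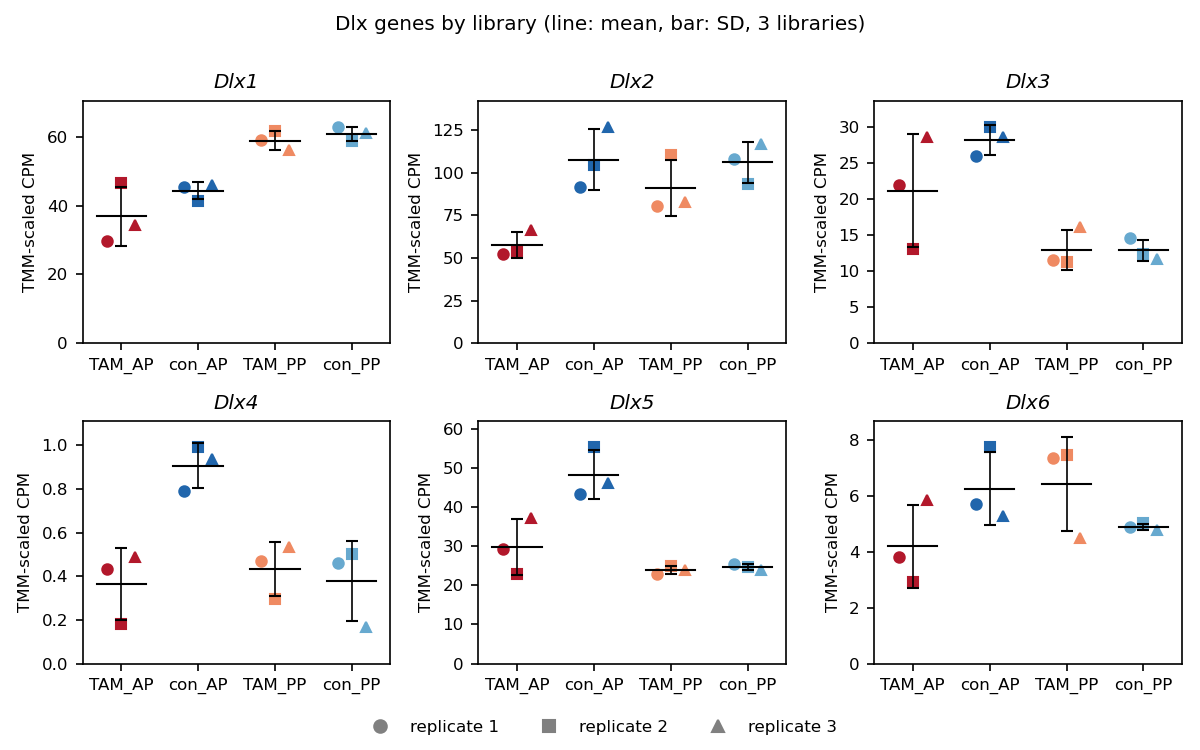
TMM-scaled CPM of each Dlx gene (y axis, from 0) in the 12 libraries, 3 per group on the x axis, with the mean as a line and the SD as a bar. In the anterior palate the TAM_AP points of Dlx2, Dlx4 and Dlx5 lie below all con_AP points, and the TAM_PP and con_PP points overlap for every gene.

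The summed CPM of the 6 members was 137.8, 138.7 and 173.0 in TAM_AP, against 212.8, 240.2 and 254.2 in con_AP. The posterior sums overlapped, at 181.8 to 216.0 in TAM_PP and 194.6 to 218.7 in con_PP. Dlx1 and Dlx2 made up 58.2 to 71.9% of the sum in TAM_AP and 60.8 to 68.1% in con_AP, and 75.4 to 79.6% in TAM_PP and 78.1 to 81.4% in con_PP. The pair thus held a larger share of the family's counts in every posterior library than in any anterior one.

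Whether the effect of tamoxifen on a Dlx gene differed between the parts of the palate was tested as an interaction. None of the 6 members was called, with adjusted p-values of 0.234 to 0.584 in edgeR. The background was 0% of genes: edgeR called 0 of the 15958 genes, 2110 had an unadjusted p under 0.05, and DESeq2 called 160 genes and limma-voom 0, none of them a member. All 6 differences of the log2 fold changes, anterior minus posterior, were negative. They were -0.22 (SE 0.17) for Dlx1, -0.69 (SE 0.20) for Dlx2, -0.42 (SE 0.32) for Dlx3, -1.499 (SE 0.64) for Dlx4, -0.65 (SE 0.19) for Dlx5 and -0.97 (SE 0.34) for Dlx6. Without TAM_AP replicate 2 they ranged from -1.17 for Dlx4 to -0.14 for Dlx3, and no member was called. The fall of Dlx2, Dlx4 and Dlx5 in the anterior palate was therefore not shown to be larger than in the posterior palate after adjustment over all genes.

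Across genes, the treatment fold changes followed transcript length and GC content. Length and GC were known for 12682 genes with a mean log2 CPM above 1. Over these the Spearman correlation of the anterior fold change was 0.593 with length and -0.59 with GC. These values are given as a description, since genes are not independent replicates. They were 0.557 and -0.482 for the posterior fold change and 0.457 and -0.53 for the interaction. By region they were -0.357 and 0.24 in controls and 0.034 and -0.234 under tamoxifen. Transcripts of the 6 members are 1423 bases (Dlx5) to 4111 bases (Dlx1) long, with a GC content of 49.4 to 58.3%. Genes of the members' length and GC content had a mean anterior log2 fold change of -0.43 at Dlx2, -0.41 at Dlx4, -0.39 at Dlx5, -0.34 at Dlx3, -0.11 at Dlx1 and -0.10 at Dlx6 by a smooth fit. With this trend removed from each library, Dlx2 was the only member called, at -0.47 (SE 0.11, adjusted p = 0.00634), when 16.3% of genes were called lower. Dlx5 then stood at -0.32 (SE 0.14, adjusted p = 0.0989), Dlx4 at -0.89 (SE 0.44, adjusted p = 0.131) and Dlx6 at -0.48 (SE 0.24, adjusted p = 0.145). Dlx1 was at -0.15 (adjusted p = 0.495) and Dlx3 at -0.09 (adjusted p = 0.791). All 6 kept a negative sign, and the source of the trend was not tested. For the interaction the smooth fit was also negative at all 6 members, from -0.23 at Dlx2 to -0.05 at Dlx6. With the trend removed the 6 interaction values ran from -1.305 for Dlx4 to -0.133 for Dlx1, without a call.

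**Figure D2:**
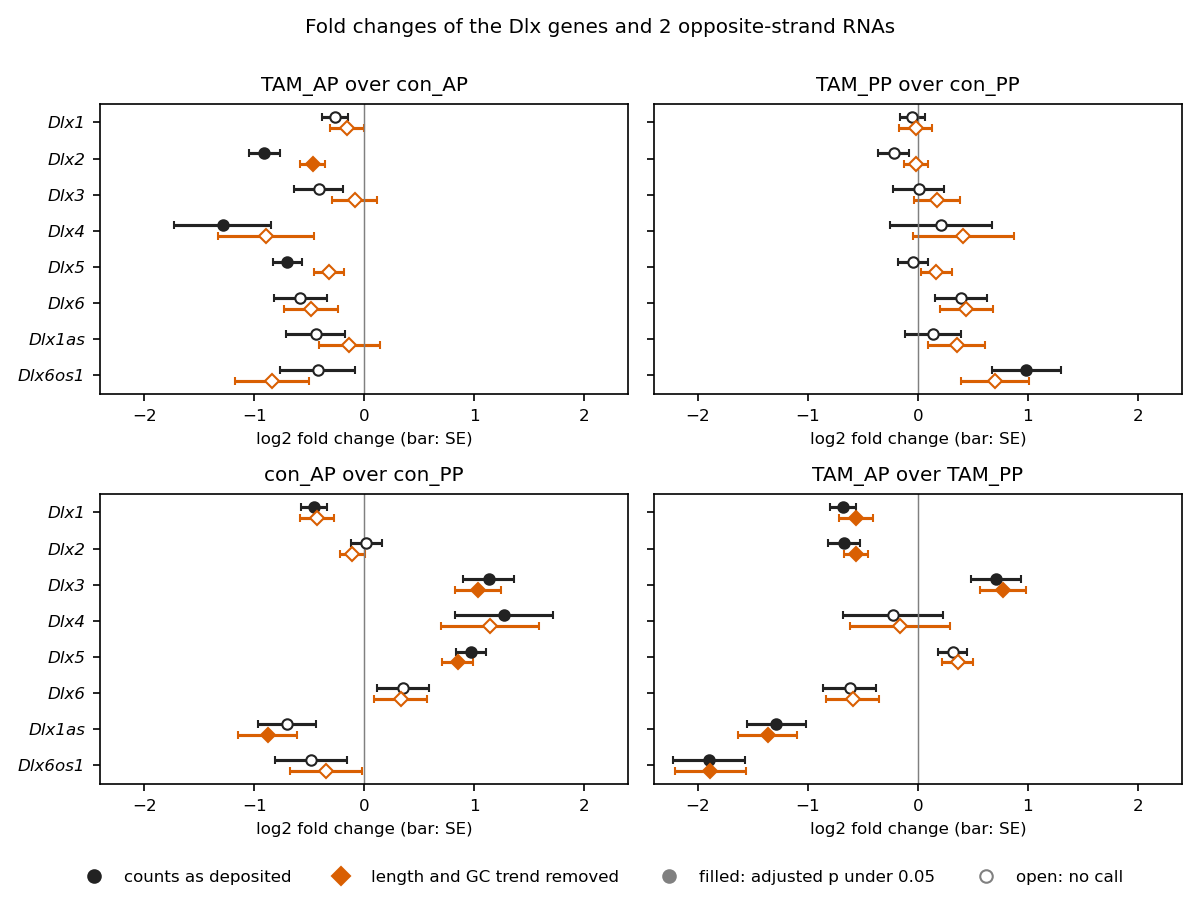
Log2 fold change (x axis, bar: SE) of each Dlx gene and of the opposite-strand RNAs Dlx1as and Dlx6os1 in 4 comparisons, from the counts as deposited (black circles) and with the length and GC trend removed (orange diamonds); filled symbols have an adjusted p under 0.05. For TAM_AP over con_AP the symbols of Dlx2, Dlx4 and Dlx5 are filled for the deposited counts, and only that of Dlx2 is filled with the trend removed.

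The regional comparison asked which members distinguish the anterior from the posterior palate. In controls Dlx3, Dlx4 and Dlx5 were higher and Dlx1 was lower in the anterior part, while Dlx2 and Dlx6 gave no call. With 4 of 6 members called, 23.3% of all genes tested were called in either direction, 10.2% higher and 13.1% lower. Once the length and GC trend was taken out, Dlx3 (1.03) and Dlx5 (0.85) were the members called, where 27.1% of genes were. Within 2 of the pairs only 1 partner was called, Dlx1 without Dlx2 and Dlx5 without Dlx6, and the difference between partners was not tested.

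Dlx5 had 43.4, 55.3 and 46.3 CPM in con_AP and 25.5, 24.6 and 24.0 CPM in con_PP, 1.96-fold higher in the anterior part (log2 fold change 0.97, SE 0.14, adjusted p = 5.71e-05). Under tamoxifen 22.9 to 37.3 CPM in TAM_AP overlapped 22.8 to 25.0 CPM in TAM_PP, and Dlx5 gave no call (0.32, SE 0.14, adjusted p = 0.128). Of 23 other fits 1 called it higher in TAM_AP, that without TAM_AP replicate 2, its lowest TAM_AP value (0.47, adjusted p = 0.00585). These comparisons are not independent of the treatment comparisons, since they use the same libraries.

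Dlx3 had 25.9, 30.03 and 28.7 CPM in con_AP, against 14.6, 12.4 and 11.7 CPM in con_PP, 2.19-fold higher (log2 fold change 1.13, SE 0.23, adjusted p = 0.00296). Under tamoxifen its 13.0 CPM in TAM_AP replicate 2 lay within the 11.3 to 16.1 CPM of TAM_PP. The log2 fold change was 0.71 (SE 0.23, adjusted p = 0.0471), and without TAM_AP replicate 2 it was 0.96 (adjusted p = 0.000264). The call was lost in 10 of the 12 fits that leave out 1 library, among them those without either of the other TAM_AP libraries, with adjusted p-values of 0.139 and 0.16.

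Dlx4 had 0.793, 0.991 and 0.937 CPM in con_AP and 0.463, 0.501 and 0.166 CPM in con_PP, 2.42-fold higher with an adjusted p of 0.0483. That call held in 6 of 22 other fits, with adjusted p-values of 0.03 to 0.188, and leaving out any 1 library other than TAM_AP replicate 2 ended it. Under tamoxifen the anterior and posterior values of Dlx4 overlapped, with a log2 fold change of -0.23 (SE 0.45), which turned to 0.076 without TAM_AP replicate 2.

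Dlx1 ran the other way. It had 45.5, 41.5 and 46.1 CPM in con_AP, below the 62.8, 58.8 and 61.0 CPM of con_PP (log2 fold change -0.46, SE 0.12, adjusted p = 0.01), and with the length and GC trend removed the adjusted p was 0.0623. In tamoxifen-treated mice its 29.8 to 46.4 CPM in TAM_AP also lay below the 56.0 to 61.6 CPM of TAM_PP (-0.68, SE 0.12, adjusted p = 0.000513), and without TAM_AP replicate 2 the log2 fold change was -0.88 (adjusted p = 8.52e-07).

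Dlx2 gave no call by region in controls, at 107.7 ± 17.9 CPM in con_AP and 106.2 ± 12.1 CPM in con_PP (SD, n = 3 each), a log2 difference of 0.02 with a 95% confidence interval of -0.28 to 0.32. In tamoxifen-treated mice it was lower in the anterior part, as 10.2% of genes were, at 52.7 to 66.3 CPM in TAM_AP and 80.8 to 110.3 CPM in TAM_PP (log2 fold change -0.67, SE 0.14, adjusted p = 0.00379). It was called there in all 23 other fits, without TAM_AP replicate 2 at -0.62 (adjusted p = 0.0253). Together, 3 of 6 members were called between TAM_AP and TAM_PP, where 17.8% of genes were called.

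Dlx6 gave no call by region. Its 3 con_AP values lay above its 3 con_PP values, a lack of overlap found for 41.2% of genes in either direction, at 5.29 to 7.74 CPM in con_AP against 4.79 to 5.01 CPM in con_PP, with a log2 fold change of 0.35 (SE 0.24, adjusted p = 0.311). With TAM_AP at 2.91 to 5.83 CPM and TAM_PP at 4.48 to 7.44 CPM, the log2 fold change of Dlx6 under tamoxifen was -0.62 (SE 0.24, adjusted p = 0.0851), and -0.42 (adjusted p = 0.287) without TAM_AP replicate 2.

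Epithelial cells are a known site of Dlx3 expression, and epithelial markers moved with region. The 11 markers summed to 1050 to 1320 CPM in con_AP and 574 to 641 CPM in con_PP, with 8 called higher and 0 lower in con_AP and none at 0. The sums were 1010 to 1240 CPM in TAM_AP and 643 to 825 CPM in TAM_PP, with 9 higher and 0 lower in TAM_AP. Markers of skeletal muscle, at 4.26 to 16.0 CPM in anterior libraries and 391 to 657 CPM in posterior ones, ran opposite, and so did those of cartilage. The part of these markers in the regional differences of Dlx genes was not tested. Between TAM_AP and con_AP the epithelial sums overlapped, with 3 markers higher and 2 lower, whereas the TAM_PP sums lay above those of con_PP, with 4 higher and 0 lower. All 3 endothelial markers were higher in both treated groups (TAM_AP 334 to 365 CPM, con_AP 265 to 292 CPM). Of 7 palatal mesenchyme markers, 2 were higher and 3 lower in TAM_AP, and 2 higher and 1 lower in TAM_PP. Their sums overlapped in the anterior palate, at 5060 to 7110 CPM in TAM_AP and 6200 to 6940 CPM in con_AP. In TAM_AP 2 of 3 macrophage markers (20.8 to 31.7 CPM in TAM_AP, 20.1 to 22.5 CPM in con_AP) and 2 of 6 neuron markers were higher, and 2 of 5 muscle markers (4.26 to 6.32 CPM in TAM_AP, 6.09 to 16.0 CPM in con_AP) and 1 of 2 tested lower jaw markers were lower. That lower jaw marker, Gsc, was at -0.10 (adjusted p = 0.584) with the length and GC trend removed. The other, Hand2, averaged 4.27 CPM in TAM_AP and 2.89 CPM in con_AP. The epithelial marker Trp63 was not called in TAM_AP with the trend removed (0.18, adjusted p = 0.199). The counts of called markers are from the deposited counts. Endothelial, macrophage, neuron and muscle markers were not followed with the trend removed. The part of these markers in the treatment differences of Dlx genes was not tested. Over all genes tested, 49.7% were called between TAM_AP and con_AP and 29.0% between TAM_PP and con_PP. By region 23.3% were called in controls and 17.8% under tamoxifen. Osteoblast markers gave no call in either treatment comparison (0 of 6).

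Levels of different members were compared per kilobase of the longest transcript. In TAM_AP, Dlx2 (23.2 ± 3.11 CPM per kb) and Dlx5 (20.9 ± 5.10) came first with overlapping values, then Dlx1 (8.97 ± 2.09) and Dlx3 (8.13 ± 3.00), also overlapping, then Dlx6 (1.89 ± 0.675) and Dlx4 (0.160 ± 0.072). In con_AP the order was the same except that Dlx3 and Dlx1, both at 10.8 CPM per kb, were level. There Dlx2 was at 43.5 ± 7.23 and Dlx5 at 34.0 ± 4.38, and Dlx6 at 2.82 ± 0.589 and Dlx4 at 0.397 ± 0.045. No neighbours in the order overlapped in the posterior palate. Dlx2 led with 36.9 ± 6.66 CPM per kb in TAM_PP and 42.9 ± 4.90 in con_PP. In TAM_PP it was followed by Dlx5 (16.8), Dlx1 (14.3), Dlx3 (4.98), Dlx6 (2.90) and Dlx4 (0.190). The order was the same in con_PP, with Dlx5 at 17.4, Dlx1 at 14.8, Dlx3 at 4.95, Dlx6 at 2.21 and Dlx4 at 0.165. Over the union of all exons Dlx1 and Dlx5 changed places in the posterior palate and overlapped (Dlx1 10.9 and Dlx5 10.6 CPM per kb in TAM_PP, Dlx1 11.3 and Dlx5 10.9 in con_PP), and Dlx3 (8.13) came before Dlx1 (6.83) in TAM_AP, so the order depends on the length used.

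**Figure D3:**
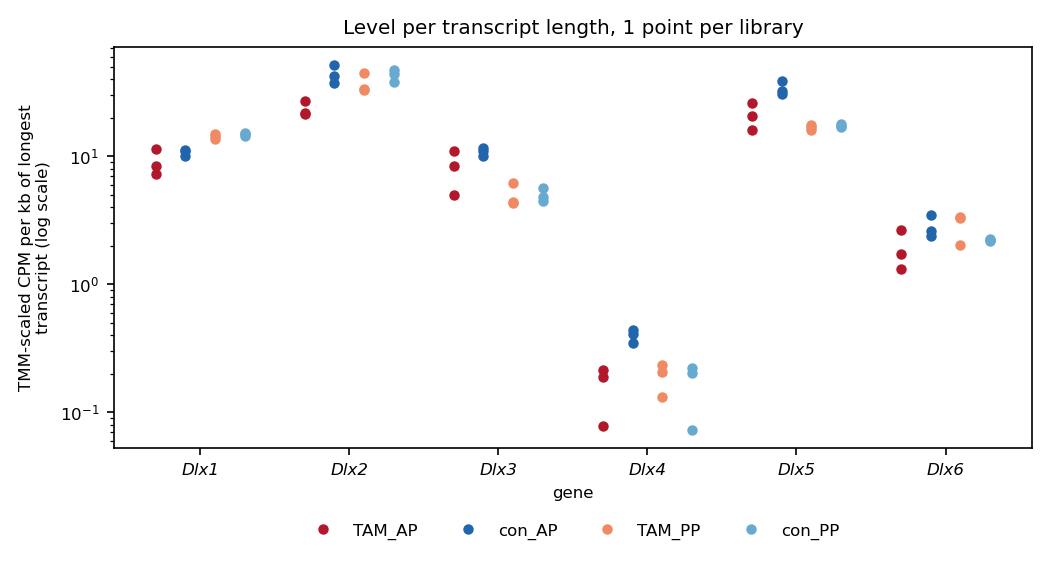
TMM-scaled CPM per kb of the longest transcript (y axis, log scale) of the 6 Dlx genes, 1 point per library, with TAM_AP, con_AP, TAM_PP and con_PP from left to right for each gene. Dlx2 has the highest mean in every group, from 23.2 CPM per kb in TAM_AP to 43.5 in con_AP, and Dlx4 the lowest, below 0.5 CPM per kb in every library.

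Several RNAs are transcribed opposite to Dlx genes. Of 6 names on the list of such RNAs, 4 were in the files and 2, Dlx1as and Dlx6os1, passed the filter. Whether counting used strand is not given in the sources used here. Exons of Dlx1as share 335 bases with those of Dlx1 in the GENCODE annotation, so without strand reads there cannot be told apart. The same holds for 79 exon bases of Dlx4 shared with Dlx4os and 104 of Dlx6 shared with Dlx6os2, whereas Dlx6os1 shares no exon bases with Dlx5 or Dlx6. Dlx6os1, also known as Evf2, regulates Dlx5 and Dlx6 in the mouse forebrain.

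Dlx1as had 2.24, 3.51 and 5.55 CPM in TAM_AP and 5.97, 4.01 and 5.18 CPM in con_AP, which overlap (log2 fold change -0.44, SE 0.27, adjusted p = 0.188). Its posterior level was 9.05 ± 1.88 CPM in TAM_PP and 8.23 ± 1.17 CPM in con_PP (SD, n = 3 each). Like Dlx1, it was lower in TAM_AP than in TAM_PP (-1.28, SE 0.26, adjusted p = 0.00259, and 0.018 without TAM_AP replicate 2). In controls Dlx1as stood at -0.70 between the regions (SE 0.26, adjusted p = 0.0667), and 6 of 23 other fits called it, among them DESeq2 (adjusted p = 0.0255) and the fit with the trend removed (-0.88, adjusted p = 0.0275).

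Dlx6os1 had 0.956, 0.560 and 1.22 CPM in TAM_AP and 1.09, 1.26 and 1.33 CPM in con_AP, without a call. Its posterior values were 5.08, 2.70 and 2.43 CPM in TAM_PP, against 1.22, 1.93 and 2.01 CPM in con_PP. All treated values lay above the controls, as for 26.5% of genes tested, and Dlx6os1 rose 1.98-fold (log2 fold change 0.99, SE 0.31, adjusted p = 0.0266), where 17.3% of genes were called higher. Without TAM_PP replicate 1, which had the highest value, it was at 0.56 (adjusted p = 0.218), without con_PP replicate 1 at 0.79 (adjusted p = 0.12), and with the length and GC trend removed at 0.70 (adjusted p = 0.129). Between TAM_AP and TAM_PP it was 3.72-fold lower in the anterior part (-1.90, SE 0.33, adjusted p = 0.000413), and at -1.66 (adjusted p = 0.00183) without TAM_AP replicate 2. The first listed of its start windows, shown above, was the one with 2 copies of TAATTA.

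The genes whose log2 CPM was most like that of each member over the 12 libraries are given as a description, since libraries share region and treatment. Dlx3 and Dlx5 had a Pearson r of 0.917 with each other, Dlx4 and Dlx5 of 0.774, Dlx1 and Dlx2 of 0.607, and Dlx5 and Dlx6 of 0.39. Dlx1 and Dlx3 ran in opposite directions (r = -0.746). Outside the family, Dlx1 was most like Tcap (0.961), Nnmt (0.95) and Sh3bgr (0.948). For Dlx2 these were Fam3a (0.971), Atp6v0a1 (0.953) and Wnk4 (0.952). Dlx3 was close to Tcf7, a transcription factor of the Wnt pathway (0.966), and the homeobox gene Irx5 (0.965), and Dlx5 to Crtac1 (0.971), Foxj1 (0.947) and Insc (0.947). For the low-count members the values were Mst1 (0.934), Matn2 (0.901) and Asic3 (0.898) for Dlx4, and Ccdc87 (0.838), Slc18a3 (0.799) and Tspan7 (0.793) for Dlx6. Several of these genes had low levels, which limits their r. Group means were 0.34 to 2.14 CPM for Tcap, 0.02 to 0.70 CPM for Nnmt and 0.22 to 2.60 CPM for Sh3bgr. They were 0.22 to 0.42 CPM for Mst1 and 0.24 to 0.35 CPM for Ccdc87.

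Genes that act with or around the Dlx genes were followed by lists. Their counts are to be read beside the shares over all genes tested. From the deposited counts these were 49.7% called in TAM_AP and 29.0% in TAM_PP. By region in controls they were 10.2% higher and 13.1% lower. For list counts made once the length and GC trend was taken out, the matching shares were 31.9% in TAM_AP and 17.7% in TAM_PP. Of 12 endothelin signalling genes, 6 rose and 1 fell in TAM_AP (median log2 fold change 0.21, against -0.02 over all genes), and 6 rose and 0 fell in TAM_PP (median 0.23, against 0.02). Ednra, the receptor upstream of Dlx5 and Dlx6 in the arches, rose to 148.7 ± 2.45 CPM in TAM_AP, against 88.7 ± 11.6 CPM in con_AP (log2 fold change 0.74, SE 0.09, adjusted p = 1.25e-05), in the comparison in which Dlx5 fell. Plcb4, a phospholipase downstream of that receptor, rose by 0.89 on the log2 scale in TAM_AP and by 0.63 in TAM_PP. Edn1, the ligand, rose in TAM_PP to 1.496 ± 0.099 CPM, against 0.678 ± 0.277 CPM in con_PP, and in controls it was 4.35-fold higher in the anterior part. After removal of the length and GC trend 4 genes of the list were higher and 1 lower in TAM_AP, and 2 and 0 in TAM_PP, Ednra (0.60) and Plcb4 (0.40) in TAM_AP and Edn1 (1.15) in TAM_PP among them. Gnaq, which encodes a G protein of the pathway, rose in TAM_AP (0.36, adjusted p = 0.000614) and turned to -0.10 with the trend removed (adjusted p = 0.186).

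Of 13 tested jaw patterning genes linked to Dlx genes in mouse arches, 3 rose and 8 fell in TAM_AP, and 3 rose and 2 fell in TAM_PP. The median log2 fold change was -0.70 in TAM_AP and 0.14 in TAM_PP. Barx1, a homeobox gene, had 238.9 ± 22.0 CPM in TAM_AP and 399.4 ± 39.1 CPM in con_AP, and Pitx1, another, had 139.0 ± 19.7 CPM in TAM_AP and 230.4 ± 44.2 CPM in con_AP. After the same removal 3 genes were higher and 1 lower in TAM_AP and 1 higher and 0 lower in TAM_PP. In TAM_AP the median was -0.02, and Barx1 (-0.06) and Pitx1 (-0.02) gave no call. By region in controls, 7 of the 13 were higher and 4 lower in the anterior part, Foxl2 4.25-fold higher and Barx1 2.45-fold lower.

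Among 15 partners and regulators of Dlx proteins, 6 rose and 4 fell in TAM_AP and 3 rose and 1 fell in TAM_PP. Prrx1, a homeobox gene of facial mesenchyme, and Trp63, an epithelial regulator of Dlx3 that is also among the epithelial markers, rose by 0.74 and 0.69 on the log2 scale in TAM_AP and by 0.58 and 0.61 in TAM_PP. With the trend removed 1 was higher and 3 lower in TAM_AP, and 2 higher and 3 lower in TAM_PP. Neither Prrx1 (0.09) nor Trp63 (0.18) was then called in TAM_AP, and in TAM_PP Prrx1 was called (0.17, adjusted p = 0.0404) and Trp63 was not (0.28, adjusted p = 0.0733). Msx2, whose protein can bind those of Dlx genes, was 3.84-fold lower in the anterior part in controls, and Msx1 29.2-fold higher.

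In the circuit of Fgf7 and Sonic hedgehog, 4 of 9 genes rose and 2 fell in TAM_AP, and 1 rose and 2 fell in TAM_PP. Once the trend was taken out, 2 genes of this circuit were called higher and 1 lower in TAM_AP, against 1 higher and 3 lower in TAM_PP. Fgf7 itself was lower in the anterior part, with 4.04 ± 0.536 CPM in con_AP and 11.5 ± 0.542 CPM in con_PP (log2 fold change -1.51, adjusted p = 2.22e-06), the reverse of Dlx5. Gli1, a Hedgehog target, fell in TAM_AP (-0.77) and in TAM_PP (-0.50), and was also called with the trend removed in both, at -0.43 and -0.36. Ptch1, the Hedgehog receptor and another target, rose in TAM_AP (0.93, and 0.24 with the trend removed). In TAM_PP it was not called (0.25, adjusted p = 0.0773), and with the trend removed it was called lower (-0.20, adjusted p = 0.0262). Of 11 tested osteoblast genes 1 rose and 0 fell in TAM_AP and none was called in TAM_PP. That gene, Phex, was not called with the trend removed (adjusted p = 0.965).

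Coding genes next to the 3 Dlx pairs were called about as often as all genes. Of 17 tested, 3 rose and 5 fell in TAM_AP, with a median log2 fold change of -0.05, and 3 rose and 2 fell in TAM_PP. Itga6, an integrin gene beside Dlx1 and Dlx2, rose by 0.69 in TAM_AP on the log2 scale, where Dlx2 fell, and Samd14, near Dlx3 and Dlx4, fell by 0.72. Both were also called with the trend removed (0.50 and -0.17).

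**Figure D4:**
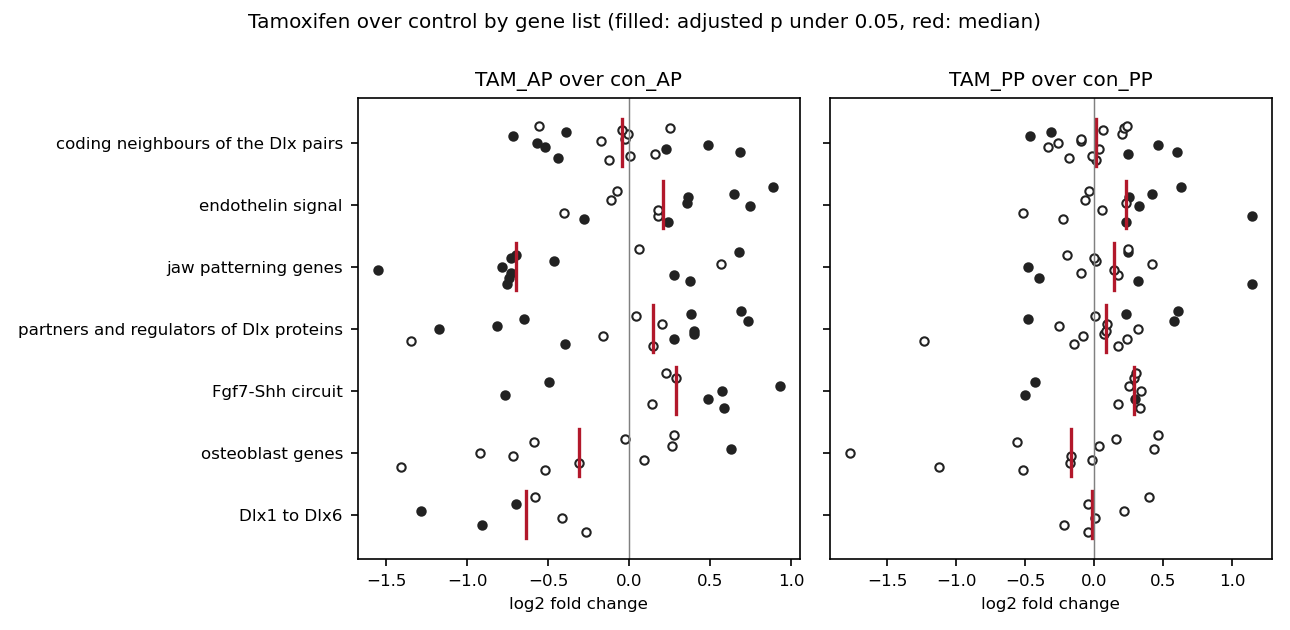
Log2 fold change of tamoxifen over control (x axis) for each tested gene of 6 lists and of the 6 Dlx genes, in the anterior (left) and posterior palate (right). Filled points have an adjusted p under 0.05 and red lines are medians; in the anterior palate 8 of 13 jaw patterning genes are called lower, and in the posterior palate no Dlx gene is called.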

How the data were processed

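The deposited files hold raw read counts per gene symbol, 1 file per library, read as unnormalized from their values (whole numbers whose totals differ between libraries). HISAT2, StringTie and genome build mm9 are named in the submitters' processing notes; their versions and the annotation, strand setting and batches are not stated there. Among counts of 1 to 100, 57.1 to 60.1% were even, so both mates of a read pair may have been counted.

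R 4.3.3 and edgeR 4.0.16 (filterByExpr by group, TMM, robust quasi-likelihood fit with the 4 group means from all 12 libraries and 8 residual degrees of freedom) gave 5 contrasts, with Benjamini-Hochberg adjustment across the 15958 genes tested and a threshold of 0.05. DESeq2 1.42.0, limma-voom (limma 3.58.1), other scalings and filters, the 6 libraries alone, halved counts, the replicate block, removal of a length and GC trend (splines with 4 degrees of freedom; GENCODE lengths for 15844 tested genes) and leaving out each library were alternatives. The fits were tested on simulated data. An exact test of 3 against 3 cannot go below 0.1, so levels have no test of their own.

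The members, gene lists and tests were chosen with earlier results of these data known. Named genes are all 6 members, per member the 3 genes of highest Pearson r (log2 CPM, prior count 2), per list and contrast up to 3 called genes with the smallest adjusted p, and the tested opposite-strand RNAs. Some genes this rule names are not reported here.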

Additional observations from a re-analysis of the deposited data

How the results depend on the processing

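Without the length and GC trend, 1 Dlx gene was called in TAM_AP against con_AP (1 with the replicate block too) and 2 in con_AP against con_PP (2 with the block), where the deposited counts gave 3 and 4; limma-voom called 5 in TAM_AP. Over all genes the trend's removal left 5096 calls in TAM_AP (2498 higher and 2598 lower, against 4089 and 3835) and 2821 in TAM_PP (1215 higher and 1606 lower, against 2762 and 1863), or 4913 and 2657 with the block. By region the split became 2308 higher and 2010 lower in controls, against 1634 and 2083, and 2187 higher and 1772 lower under tamoxifen, against 1213 and 1633. For the interaction DESeq2 called 160 genes, and the trend's removal with the block 1. Leaving out 1 library at a time gave 2 to 5 Dlx calls in TAM_AP, 3 to 4 by region in controls and 2 to 4 under tamoxifen. It gave 2714 to 5485 calls over all genes in TAM_PP, against 4625, and 0 to 6 for the interaction.

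Among called genes of the 6 lists, removal of the trend turned the sign of 7 of 43 in TAM_AP, 1 of them called in the new direction, and of 2 of 23 in TAM_PP. Signs of Dlx genes and their opposite-strand RNAs turned in comparisons where they were not called. Dlx3 in TAM_PP was at -0.012 with limma-voom and with the stricter filter, -0.010 in the 6 libraries alone, -0.014 with the replicate block, and -0.177 to 0.106 with 1 library left out. Dlx5 in TAM_PP was at 0.168 with the trend removed, and 0.168 with the block as well. Dlx2 by region in controls was at -0.002 with the stricter filter, -0.107 with the trend removed, -0.111 with the block as well, and -0.115 to 0.097 with 1 library left out. With 1 library left out, Dlx4 ranged from -0.15 to 0.464 in TAM_PP and from -0.454 to 0.076 between TAM_AP and TAM_PP, and Dlx1as from -0.042 to 0.278 in TAM_PP. The cause was not tested.

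Deviations of same-numbered libraries had an r of -0.058 to 0.147 over 18 pairs, 2 of them over 0.1, and 7 of 12 libraries correlated best with their own number. The 2 pairs were TAM_AP with TAM_PP, in replicate 1 (0.147) and replicate 3 (0.137), against -0.015 in replicate 2. The labels do not say whether anterior and posterior parts came from the same embryos, and a pairing was not tested beyond the replicate block. The replicate block left 3 Dlx calls in TAM_AP and 3 by region in controls, Dlx4 at an adjusted p of 0.0641. Counts of 8 to 41 per library limit Dlx4. The stricter filter left Dlx4 out.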
